A study of Homo sapiens with 9 samples.

Results

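The genes described here encode 38 subunits of the SIN3, NCoR, NuRD and CoREST corepressors, listed by name as known parts of these complexes. The list was drawn up with earlier results of these data known, so it is not independent of them. A value was taken from array probes paired with a single gene symbol, and 35 of the 38 had one, out of 18417 genes on the array. They comprise 15 of 17 genes listed under SIN3, 4 of 5 under NCoR, 9 of 9 under NuRD, 3 of 3 under CoREST, and 4 of 4 of the core that several of these complexes share (HDAC1, HDAC2, RBBP4 and RBBP7). A gene listed under a complex may also act outside it. BRMS1L, ARID4A and NCOR1 had no probe of this kind and are not given. Cultures of MDA-MB-231, a line from a human breast cancer without hormone receptors or HER2, were left untreated (UT) or exposed for 24 hours to the SID peptide or to its scrambled counterpart (SCR), both at 2.5μM according to the methods of the study. The SID peptide joins a cell-penetrating TAT sequence to the SIN3 interaction domain of MAD1 and serves as a decoy for a pocket of SIN3, and SCR carries TAT with the same residues in another order. Each group holds 3 arrays, and only this line was used. The sources disagree on the arrays: the submitters' design text gives 3 independent replicates where the methods speak of 2, a header of a supplementary file gives SCR replicate 3 a longer treatment than the sample labels do, and the UT titles end in a number that is not explained. The labels were followed here, so the treatment time of SCR replicate 3 is in doubt in every result that uses this array. These include the means and tests on all 9 arrays and each comparison of replicate 3 with replicates 1 and 2. The question was whether subunits of the complex that the peptide targets, and of its relatives, differed in RNA between SID and SCR, with UT as the background.

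Corepressors are large protein assemblies that sequence-specific transcription factors bring to DNA, where their histone deacetylases remove acetyl groups and lower transcription nearby. SIN3A and SIN3B are scaffolds that bind factors such as MAD1 and TGIF1 through paired amphipathic helices, and that carry HDAC1, HDAC2 and the histone-binding proteins RBBP4 and RBBP7. NuRD and CoREST use the same deacetylases, NuRD together with the CHD3 and CHD4 remodelling ATPases and the MTA scaffolds, and CoREST through the RCOR scaffolds with a histone demethylase. NCoR instead works with HDAC3 and serves nuclear receptors, with TBL1X, TBL1XR1 and GPS2 as further subunits.

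The arrays were not alike. Replicates 1 and 2 of SCR and of SID stood apart from the other 5 arrays, with correlations across probes of 0.908 to 0.929 between these sets, while SCR and SID of replicate 3 correlated with UT at 0.993 to 0.995. Genes that mark the line were also split this way. CDH1, the epithelial cadherin, which is low in MDA-MB-231, had a log2 signal of 10.13 and 11.08 in SCR replicates 1 and 2 and of 6.73 to 7.26 on the other 7 arrays. KRT19, an epithelial keratin, lay between 11.41 and 11.97 in replicates 1 and 2 of both peptides and between 7.12 and 7.82 elsewhere, and CD44 between 13.17 and 13.25 against 10.68 to 10.84. All 9 mesenchymal and basal markers lay higher on these 4 arrays than on any of the other 5. Among them FN1, which encodes fibronectin, lay between 11.98 and 12.59 against 8.51 to 9.18, CAV1 between 13.69 and 13.90 against 11.53 to 11.94, and VIM, the mesenchymal filament gene, between 13.19 and 13.34 against 12.75 to 13.01. Of 11 luminal markers, GATA3, KRT19, CDH1 and EPCAM lay higher there, FOXA1 (8.25 to 9.64 against 9.89 to 10.03) and KRT8 (12.75 to 13.57 against 13.68 to 13.98) lay lower, and 5 overlapped. KRT18, among those that overlapped, lay at 12.32 and 12.39 in SID replicates 1 and 2 and at 13.23 to 13.67 on the other 7 arrays. The median per array was 10.78 to 12.59 over 9 mesenchymal and basal markers and 7.12 to 10.05 over 11 luminal markers. Over 9 markers of fibroblasts, endothelium and blood it was 6.35 to 7.59. The leukocyte gene PTPRC lay at 4.84 to 5.07, but not all 9 were low. COL1A1, a fibroblast collagen gene, lay at 8.66 to 9.29. The endothelial cadherin CDH5 lay at 7.01 and 7.16 in SID replicates 1 and 2 and at 9.30 to 10.20 on the other 7 arrays. SID minus SCR for CDH5 was -2.29, -3.04 and 0.04 by replicate. The high KRT19, EPCAM (9.74 to 10.94 against 6.14 to 6.87) and GATA3 (8.74 to 10.05 against 7.12 to 7.54) on these 4 arrays go against what is known of the line. So does the high CDH1 in SCR among them, whereas the lower FOXA1 and KRT8 and the higher mesenchymal genes do not. Conversely, FOXA1 at 9.89 to 10.03 on the other 5 arrays goes against what is known of the line. The mesenchymal genes were lower on those 5 arrays, but not all were low. VIM (12.75 to 13.01) and CAV1 (11.53 to 11.94) stayed high there, while FN1 lay at 8.51 to 9.18. Markers thus conflict with the line in both sets, and which set is closer to it was not tested. The part of these shifts in the results was not tested, and differences between SID and SCR are therefore also given by replicate. For replicates 1 and 2, peptide and array set cannot be told apart in a comparison with UT. In RNA of whole cultures, fewer cells of a kind and less RNA per cell cannot be told apart either.

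The promoters of the members on which the results turn are printed first, because HDAC1, BRMS1 and GPS2 were lower and TBL1X higher in SID than in SCR of replicates 1 and 2, and HDAC2 is shown as the paralog of HDAC1. Each run is the 250 bases before a RefSeq start (GRCh38.p14), read 5′ to 3′ on the strand of the gene. Capitals mark the GC box GGGCGG, bound by the Sp1 family, the E-box CACGTG, bound by MAX with MYC or MAD1, and TGTCA, the core bound by TGIF1. All were searched on both strands. In the windows printed no motif overlapped a different one, but GC boxes can overlap each other. The HDAC1 window lies at chr1:32291833-32292082 on the plus strand, HDAC2 at chr6:113971149-113971398 on the minus strand, BRMS1 at chr11:66345105-66345354 on the minus strand and GPS2 at chr17:7315361-7315610 on the minus strand. TBL1X has 2 starts, at chrX:9463045-9463294 and chrX:9464808-9465057, both on the plus strand.
HDAC1: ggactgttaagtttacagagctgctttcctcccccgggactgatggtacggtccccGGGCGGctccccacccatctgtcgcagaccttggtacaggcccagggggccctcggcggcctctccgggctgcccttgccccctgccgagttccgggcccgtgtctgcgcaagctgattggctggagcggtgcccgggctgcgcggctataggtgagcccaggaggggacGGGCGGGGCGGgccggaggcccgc
HDAC2: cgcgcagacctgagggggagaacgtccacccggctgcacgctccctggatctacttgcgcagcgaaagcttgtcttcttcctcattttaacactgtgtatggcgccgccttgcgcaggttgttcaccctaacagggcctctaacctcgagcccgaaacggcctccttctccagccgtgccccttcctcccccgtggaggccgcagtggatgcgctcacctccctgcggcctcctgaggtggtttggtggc
BRMS1: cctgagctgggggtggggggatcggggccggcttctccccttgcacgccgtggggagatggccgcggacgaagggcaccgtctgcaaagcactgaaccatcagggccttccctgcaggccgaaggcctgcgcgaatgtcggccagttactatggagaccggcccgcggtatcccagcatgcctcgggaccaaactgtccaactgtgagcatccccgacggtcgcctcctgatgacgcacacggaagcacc
GPS2: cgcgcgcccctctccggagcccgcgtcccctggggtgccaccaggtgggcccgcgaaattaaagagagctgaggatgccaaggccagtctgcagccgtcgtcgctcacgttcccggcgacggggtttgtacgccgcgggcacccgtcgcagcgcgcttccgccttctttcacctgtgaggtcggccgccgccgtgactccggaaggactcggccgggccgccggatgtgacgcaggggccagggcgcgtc
TBL1X, upstream start: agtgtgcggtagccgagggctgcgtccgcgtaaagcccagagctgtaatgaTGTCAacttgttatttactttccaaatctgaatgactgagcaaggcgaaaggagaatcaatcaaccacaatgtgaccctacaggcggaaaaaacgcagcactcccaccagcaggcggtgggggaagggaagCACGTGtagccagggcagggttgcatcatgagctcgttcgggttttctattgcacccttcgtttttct
TBL1X, downstream start: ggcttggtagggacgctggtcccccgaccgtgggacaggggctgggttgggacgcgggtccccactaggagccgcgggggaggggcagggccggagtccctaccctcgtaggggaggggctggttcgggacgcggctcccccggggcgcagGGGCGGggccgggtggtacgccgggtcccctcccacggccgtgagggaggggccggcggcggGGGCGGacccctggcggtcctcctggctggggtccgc
HDAC1 held 3 GC boxes, of which 2 overlap just before the start. HDAC2, BRMS1 and GPS2 held none of these motifs. The upstream start of TBL1X had 1 E-box and 1 TGTCA, and its downstream start had 2 GC boxes. RefSeq promoters were found for 33 of the 35 members, 48 promoters in all, and not for SAP18 and RCOR2. A GC box was present in 77.1% of these 48 and in 42.6% of all 35116 promoters of the same length, an E-box in 4.17% against 6.34%, and TGTCA in 22.9% against 34% (the median GC content was 70.8% against 58.0%). A match is a description of the letters, and binding was not measured on these arrays.

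Averaged over 3 replicates, no corepressor subunit passed the test between SID and SCR. A call needed an adjusted p under 0.05 from limma, a linear model with a shared estimate of the spread, and a log2 difference above 1 or below -1. By this rule 0 of 35 members were called higher and 0 lower, and 0% of all probes were called in either direction. The lowest adjusted p among members was 0.657. At an unadjusted p under 0.05, TBL1X was the 1 member higher (4.53% of all probes were) and GPS2 the 1 member lower (3.05% of all probes). No member had all 3 SID arrays above, or all 3 below, the 3 SCR arrays, a pattern seen in 4.02% and 1.6% of all genes. The median difference over the 35 members was -0.04, with 14 higher and 21 lower, and over all genes it was 0.02. Without SCR replicate 2 the members' median turned to 0.0037, and without SID replicate 2 it was -0.0080. By replicate it was -0.04, -0.06 and 0.06, the last with 25 higher and 9 lower.

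Replicates were also taken singly. A difference of one sign and over 0.5 in size in both replicate 1 and replicate 2 was found for some members. On the lower side these were HDAC1, BRMS1 and GPS2 (8.57% of the 35 members, 7.79% of all genes). TBL1X was the one on the higher side (2.86% of the members, 6.13% of all genes). The members' shares by this rule were thus near or below those of all genes. In replicate 3 none of the 35 members differed by over 0.5, against 4 (11.4%) in replicate 1 and 9 (25.7%) in replicate 2. Of all genes, 18.8%, 24.7% and 1.27% passed that size in replicates 1, 2 and 3. In the fit with the array set as a term, which compares SID and SCR within replicates 1 and 2, 0 members were called higher (1.95% of all probes were) and 1 was called lower (3.31%). Without a fold limit, TBL1X passed on the higher side (11.2% of all probes did) and HDAC1, BRMS1, OGT, GPS2 and MTA2 on the lower (13.7%). With the 4 arrays of replicates 1 and 2 alone, 0 members were called higher (1.77%) and 1 lower (2.64%). Without a fold limit these 4 arrays gave TBL1X on the higher side (6.2%) and 4 members on the lower (7.38%). As shares of the 35 members these counts are 2.86%, 14.3% for the 5 genes and 11.4% for the 4. Across the 35 members, the differences of replicates 1 and 2 correlated with r = 0.76, and 25 (71.4%) had the same sign in both, near the 68.0% of all genes. Those of replicate 3 correlated with replicate 1 at r = -0.35 and with replicate 2 at r = -0.49. Across all genes the same 3 correlations were 0.82, -0.12 and -0.14. The points are genes of the same arrays, and replicates 1 and 2 belong to the same array set, so these are descriptions.

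**Figure D1:**
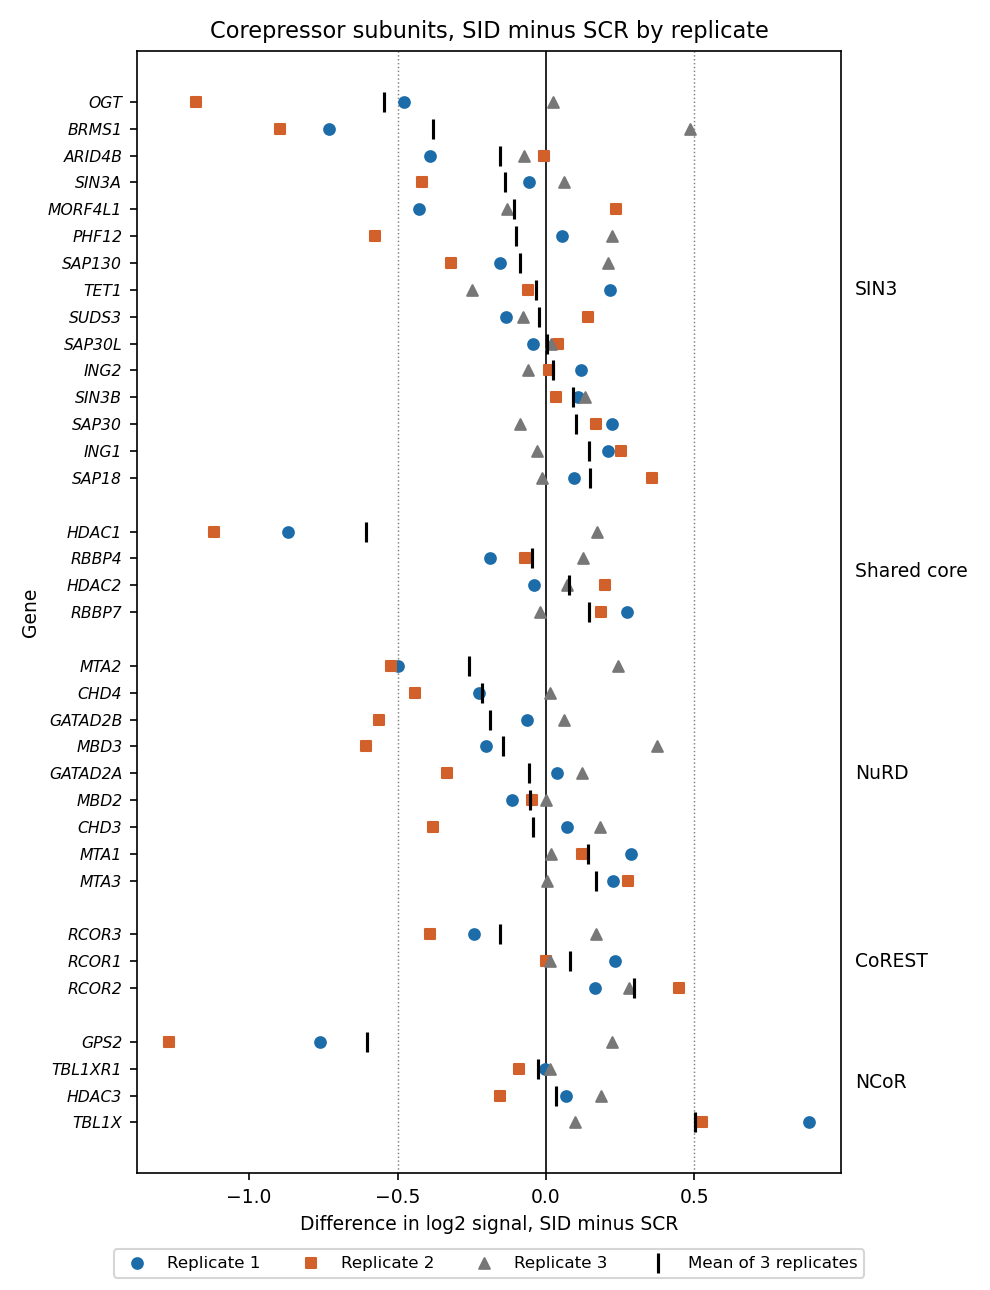
SID minus SCR (log2 signal, horizontal axis) for 35 corepressor subunits in replicates 1, 2 and 3 (circles, squares and triangles) and their mean (bars), grouped by complex, with dotted lines at -0.5 and 0.5. HDAC1, BRMS1 and GPS2 lie left of -0.5 in replicates 1 and 2 and TBL1X right of 0.5, and no triangle lies beyond either line.

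The scaffolds that the SID peptide binds differed little between SID and SCR. SIN3A had log2 signals of 11.11, 11.05 and 11.24 in UT replicates 1, 2 and 3. In SCR it had 10.59, 10.74 and 11.20, and in SID 10.53, 10.32 and 11.26. SIN3A was thus lower in replicates 1 and 2 of both peptides than on the other 5 arrays, and the SID and SCR values overlapped. Its difference, SID minus SCR, was -0.06, -0.42 and 0.06 in replicates 1, 2 and 3 (mean -0.14 with a standard error of 0.25, limma adjusted p = 0.947). This mean turned to 0.04 without SCR replicate 3 and to 0.05 without SID replicate 2.

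SIN3B, the paralogous scaffold, was at 9.70, 9.79 and 9.93 in UT, 9.84, 10.01 and 9.92 in SCR, and 9.95, 10.05 and 10.05 in SID. Its difference was 0.11, 0.03 and 0.13 (mean 0.09 with a standard error of 0.085, limma adjusted p = 0.844), and SIN3B was 1 of 5 members higher in SID than in UT at an unadjusted p under 0.05. It did not follow the split of the arrays that SIN3A showed.

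Among the proteins attached to the SIN3 scaffold, BRMS1 and OGT had the widest gaps. BRMS1, a metastasis suppressor first described in breast cancer cells, had log2 signals of 9.46, 9.29 and 9.42 in UT. They were 9.80, 9.94 and 9.70 in SCR and 9.07, 9.04 and 10.18 in SID. In replicates 1 and 2 SID lay below every UT and SCR array, whereas SID replicate 3 was the highest of all 9. The difference was -0.73, -0.90 and 0.49 (mean -0.38 with a standard error of 0.29, limma adjusted p = 0.782). Estimated within replicates 1 and 2 on all 9 arrays, with the array set as a term, it was -0.81 (standard error 0.095, adjusted p = 0.00121 from limma), and on these 4 arrays alone the adjusted p was 0.0208. BRMS1 stayed short of the fold limit of 1. The difference in replicate 3 ran the other way and was the highest of the 35 members there.

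OGT, which attaches N-acetylglucosamine to proteins and associates with SIN3A, had log2 signals of 11.26, 11.09 and 11.20 in UT. The values were 10.81, 10.85 and 11.22 in SCR and 10.33, 9.67 and 11.24 in SID. Both peptides were below UT in replicates 1 and 2, SID more so. The difference between SID and SCR was -0.48, -1.18 and 0.02 (mean -0.54 with a standard error of 0.35, limma adjusted p = 0.738). For replicates 1 and 2 it was -0.83 with an adjusted p of 0.0174 from limma with the set term, and an adjusted p of 0.0945 on the 4 arrays alone. Replicate 1 fell just short of the limit of 0.5, so OGT was not among the members named by that rule. The rule pairs SCR and SID by number, which the values do not show for numbers 1 and 2, so this outcome depends on the numbering.

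The other SIN3 subunits had smaller mean differences than these. ARID4B, a DNA-binding partner of SIN3, differed by -0.39, -0.0068 and -0.07 in replicates 1, 2 and 3, and SAP18 by 0.10, 0.36 and -0.01. SAP30 and SAP30L, small bridging proteins, differed by 0.22, 0.17 and -0.09 and by -0.04, 0.04 and 0.02, and SAP130 by -0.16, -0.32 and 0.21. The methyl-lysine readers ING1 and ING2 were little apart in SID and SCR (0.21, 0.25 and -0.03 for ING1, and 0.12, 0.0095 and -0.06 for ING2). PHF12, another reader, passed 0.5 in size in replicate 2 alone (0.06, -0.57 and 0.22). The chromodomain protein MORF4L1 changed sign between replicates, with -0.43, 0.24 and -0.13. SUDS3, which supports deacetylase activity, has 2 probes, with mean differences of -0.02 and 0.03. TET1, an enzyme that oxidises methylated cytosine, had signals of 5.03 to 5.96 over the 9 arrays and differences of 0.21, -0.06 and -0.25. For the 15 SIN3 subunits the median was -0.03, with 6 higher and 9 lower, and it changed sign (0.0037) without SCR replicate 2. By replicate it was -0.04, 0.0095 and -0.01.

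Of the core genes that several of these complexes share, HDAC1 alone stood out. HDAC1, a class I histone deacetylase, had log2 signals of 12.10, 12.01 and 12.24 in UT. In SCR it had 12.31, 12.30 and 12.25, and in SID 11.44, 11.18 and 12.42. The 7 arrays other than SID replicates 1 and 2 thus lay between 12.01 and 12.42, with both of these below. SCR averaged 12.29 ± 0.03 (SD, n = 3), whereas SID averaged 11.68 ± 0.65 (SD, n = 3). The difference was -0.87, -1.12 and 0.17 (mean -0.61 with a standard error of 0.28, limma adjusted p = 0.676). Of all genes, 3.32% had a lower difference in replicate 1 and 4.16% in replicate 2. Within replicates 1 and 2 the difference was -0.99 (standard error 0.12, adjusted p = 0.00127 from limma with the set term, and adjusted p = 0.0212 on the 4 arrays alone), just short of the fold limit of 1 and therefore not a call.

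HDAC2, the paralog of HDAC1, had signals of 11.54, 11.41 and 11.48 in UT, 11.86, 11.73 and 11.46 in SCR, and 11.82, 11.93 and 11.53 in SID. It was higher in replicates 1 and 2 of both peptides than elsewhere, and SID minus SCR was -0.04, 0.20 and 0.07. RBBP4 and RBBP7, the histone-binding WD repeat proteins, differed by -0.19, -0.07 and 0.12 and by 0.27, 0.18 and -0.02. The 4 core genes had 2 higher and 2 lower on average, with medians of -0.12, 0.06 and 0.10 by replicate.

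**Figure D2:**
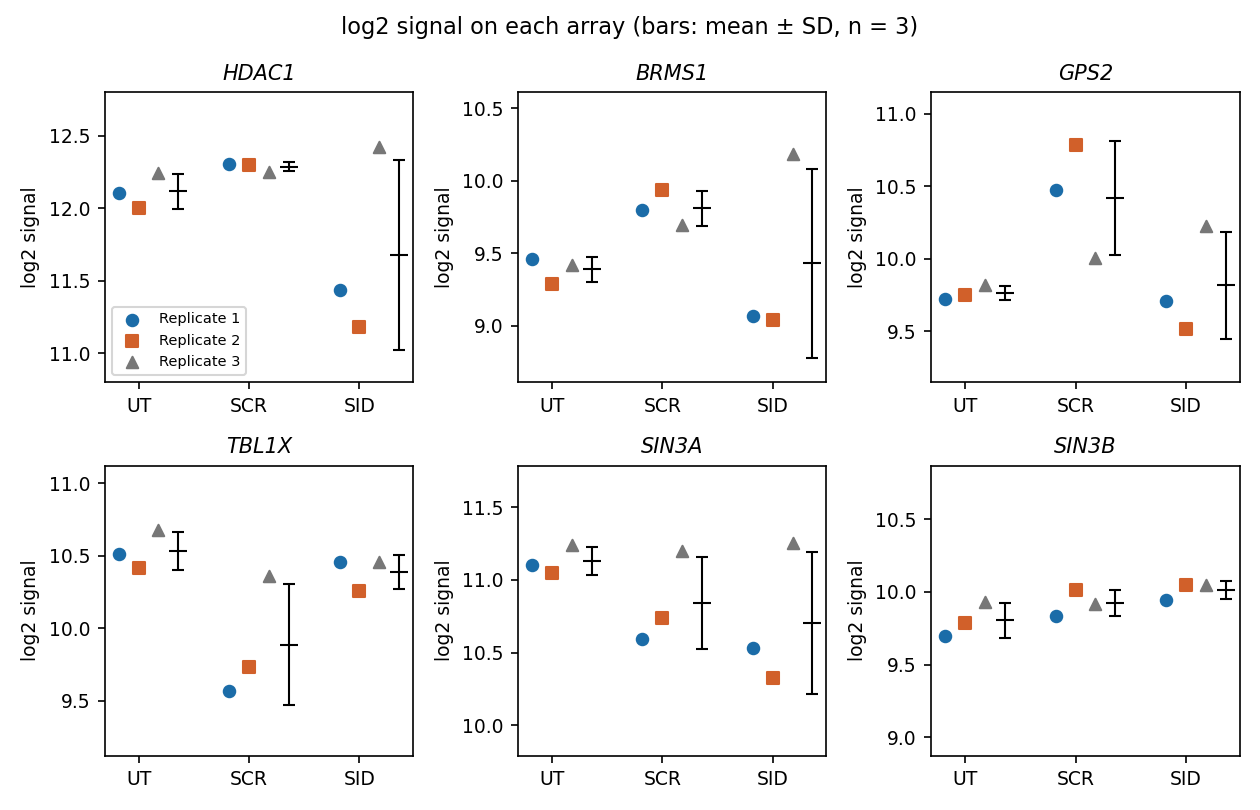
log2 signal of HDAC1, BRMS1, GPS2, TBL1X, SIN3A and SIN3B on each of the 9 arrays (points, by replicate) in UT, SCR and SID, with the mean and SD of 3 arrays beside each group. SID replicates 1 and 2 lie below all other arrays for HDAC1 and BRMS1, SCR replicates 1 and 2 lie above all others for GPS2 and below all others for TBL1X, and each panel spans 2 log2 units.

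In NCoR, GPS2 and TBL1X differed in opposite directions, and for both of them SCR replicates 1 and 2 lay far from UT while SID lay close to it. GPS2, a small subunit that holds HDAC3 and TBL1 proteins to the NCoR scaffold, had log2 signals of 9.72, 9.75 and 9.82 in UT. They were 10.47, 10.78 and 10.00 in SCR and 9.71, 9.51 and 10.23 in SID. SCR replicates 1 and 2 were the highest of the 9 arrays, and SID replicates 1 and 2 the lowest. The difference, SID minus SCR, was -0.76, -1.27 and 0.22 (mean -0.60 with a standard error of 0.23, limma adjusted p = 0.657). Within replicates 1 and 2 it was -1.01 (standard error 0.12, adjusted p = 0.00143 from limma with the set term), and GPS2 was the 1 member called lower there, where 3.31% of all probes were. It was also called on the 4 arrays alone (adjusted p = 0.0278 from limma), where 2.64% of all probes were lower. From the mean of UT, SCR replicates 1 and 2 differed by 0.87 on average and SID replicates 1 and 2 by -0.15.

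TBL1X, a WD repeat subunit that helps exchange corepressors for coactivators, had log2 signals of 10.52, 10.42 and 10.68 in UT, 9.57, 9.73 and 10.36 in SCR, and 10.46, 10.26 and 10.46 in SID. SCR replicates 1 and 2 were the lowest of the 9 arrays, and SCR replicate 3 lay within the range of SID. The difference was 0.89, 0.52 and 0.10, positive in 3 of 3 replicates (mean 0.50 with a standard error of 0.20, limma adjusted p = 0.657). The value for replicates 1 and 2 was 0.71 (standard error 0.12, adjusted p = 0.00523 from limma with the set term, and adjusted p = 0.0332 on the 4 arrays alone). Against UT, SCR replicates 1 and 2 were at -0.88 and SID replicates 1 and 2 at -0.18.

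HDAC3, the deacetylase of NCoR, was at 11.03, 11.20 and 11.15 in UT, 11.80, 12.07 and 11.22 in SCR, and 11.87, 11.91 and 11.41 in SID. It was higher in replicates 1 and 2 of both peptides than on the other 5 arrays, and the 2 peptides differed by 0.07, -0.15 and 0.19. TBL1XR1, the paralog of TBL1X, differed by -0.0047, -0.09 and 0.01. The 4 NCoR subunits had 2 higher and 2 lower on average, with medians of 0.03, -0.12 and 0.14 by replicate.

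Over NuRD, 7 of the 9 subunits were lower in SID on average and 2 higher, with a median of -0.06. That median was -0.16 within replicates 1 and 2 and -0.22 without SID replicate 3. MTA2, a scaffold subunit, had log2 signals of 12.37, 12.40 and 12.45 in UT. The values were 12.44, 12.43 and 12.44 in SCR and 11.95, 11.91 and 12.68 in SID. As with HDAC1, SID replicates 1 and 2 were below the other 7 arrays and SID replicate 3 above them. The difference was -0.498, -0.52 and 0.24 (mean -0.26 with a standard error of 0.19, limma adjusted p = 0.774). It was -0.51 within replicates 1 and 2 (standard error 0.079, adjusted p = 0.00355 from limma with the set term, and adjusted p = 0.0302 on the 4 arrays alone).

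The NuRD median differed from replicate to replicate. In replicate 2 it was -0.38, with 7 lower and 2 higher, while over all genes it was 0.07. Lower values there came from MBD3, which anchors the complex on chromatin (-0.61), GATAD2B (-0.56), the ATPases CHD4 (-0.44) and CHD3 (-0.38), and GATAD2A (-0.33). In replicate 1 the median was -0.06, with 5 lower and 4 higher. In replicate 3 it was 0.06, with 8 higher and none lower, and MBD2, a reader of methylated DNA, at 0. The other MTA scaffolds, MTA1 (0.29, 0.12 and 0.02) and MTA3 (0.23, 0.28 and 0.0050), were higher in SID in replicates 1 and 2 and barely so in replicate 3. Their means were 0.14 and 0.17. Each complex had between 3 and 15 measured subunits, and none was tested as a group.

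CoREST had 3 measured scaffolds. RCOR2 had log2 signals of 7.78, 8.08 and 8.17 in UT, 7.34, 7.20 and 8.15 in SCR, and 7.51, 7.64 and 8.43 in SID. It was lower in replicates 1 and 2 of both peptides and higher in SID than in SCR in 3 of 3 replicates (0.17, 0.45 and 0.28). RCOR1 differed by 0.23, -0.0009 and 0.01, and RCOR3 by -0.24, -0.39 and 0.17. The median of the 3 was 0.08 on average, and 0.17, -0.0009 and 0.17 by replicate.

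Subunits that take the same place in a complex could be compared within each replicate. HDAC1 minus HDAC2, as a difference of their SID minus SCR values, was -0.83, -1.32 and 0.10 in replicates 1, 2 and 3. TBL1X minus TBL1XR1 was 0.89, 0.61 and 0.08. MTA1 minus MTA2 was 0.79, 0.64 and -0.23, so that the MTA scaffolds went apart in replicates 1 and 2. RCOR2 minus RCOR3 was 0.41, 0.84 and 0.11, and SIN3A minus SIN3B was -0.17, -0.45 and -0.07. Of the 15 pairs, those with HDAC1, TBL1X or MTA2 had the widest gaps in replicate 1, and they are the pairs that hold a member already described. These gaps have no test of their own.

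**Figure D3:**
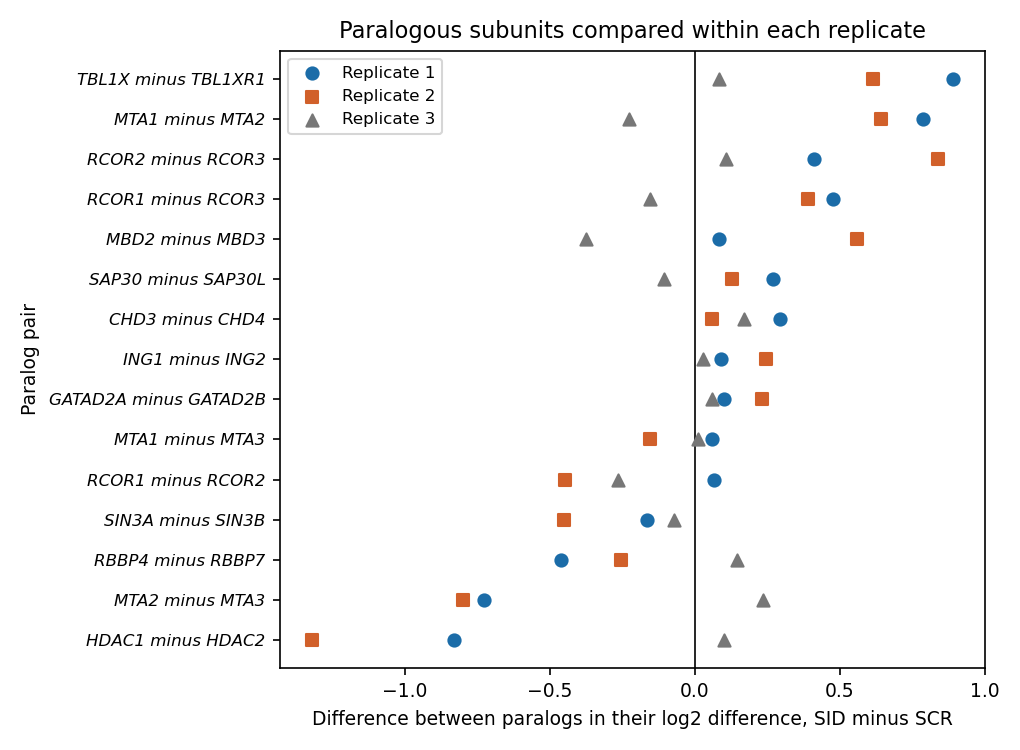
Difference between paralogous subunits in their SID minus SCR value (log2) for 15 pairs, in replicates 1, 2 and 3 (circles, squares and triangles), with the pairs ordered by the mean of replicates 1 and 2. HDAC1 minus HDAC2 reached -1.32 in replicate 2, TBL1X minus TBL1XR1 reached 0.89 in replicate 1, and all triangles lie closer to 0 than these points.

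Against untreated cells, no member passed the test under either peptide. Between SID and UT none was called (0 higher and 0 lower, and 0% of all probes in either direction), and the same held between SCR and UT (0 and 0, 0% of all probes). The lowest adjusted p from limma was 0.388 and 0.332. At an unadjusted p under 0.05, SIN3B, ING2, HDAC3, MBD2 and GATAD2A were higher in SID than in UT (5 members, against 6.29% of all probes) and SUDS3, ING1 and GATAD2B lower (3 members, 6.21%). For SCR, ING2, HDAC3, GPS2, MBD2, MBD3 and GATAD2A were higher (6 members, 6.66%) and RBBP7, SUDS3, ING1, TBL1X and MTA3 lower (5 members, 7.79%). In all these are 8 and 11 members. Without 1 array the first count ran from 2 (without SID replicate 2 or UT replicate 2) to 19 (without SID replicate 3), and the second from 6 (without SCR replicate 1, SCR replicate 2 or UT replicate 1) to 15 (without SCR replicate 3). These comparisons share the UT arrays, so names that occur in both are not independent. Without SID replicate 3, OGT was called lower in SID than in UT (5.29% of all probes were) and no member higher (4.71%).

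HDAC3 was above the mean of UT by 0.77 in SID and 0.81 in SCR of replicates 1 and 2, and by 0.28 and 0.10 in replicate 3. ING2 was above it by 0.43 and 0.37, and by 0.17 and 0.23 in replicate 3. GATAD2A differed from UT in replicate 3 as well, by 0.43 in SID and 0.31 in SCR, against 0.48 and 0.63 in replicates 1 and 2. SUDS3 differed by -0.54 and -0.55 in replicates 1 and 2 and by -0.16 and -0.08 in replicate 3. ING1, a reader of methylated histone tails and a candidate tumour suppressor, differed by -0.39 and -0.63 and by -0.21 and -0.18. In all, 6 members lay higher on the 4 arrays of replicates 1 and 2 of SCR and SID than on any of the other 5 (HDAC2, SAP130, ING2, TET1, HDAC3 and MBD2, where 16.8% of all genes did). Another 11 lay lower (SIN3A, RBBP4, RBBP7, SUDS3, ING1, OGT, TBL1XR1, CHD3, MTA1, GATAD2B and RCOR2, where 15.6% of all genes did). As a share of the 35 members these are 17.1% and 31.4%.

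**Figure D4:**
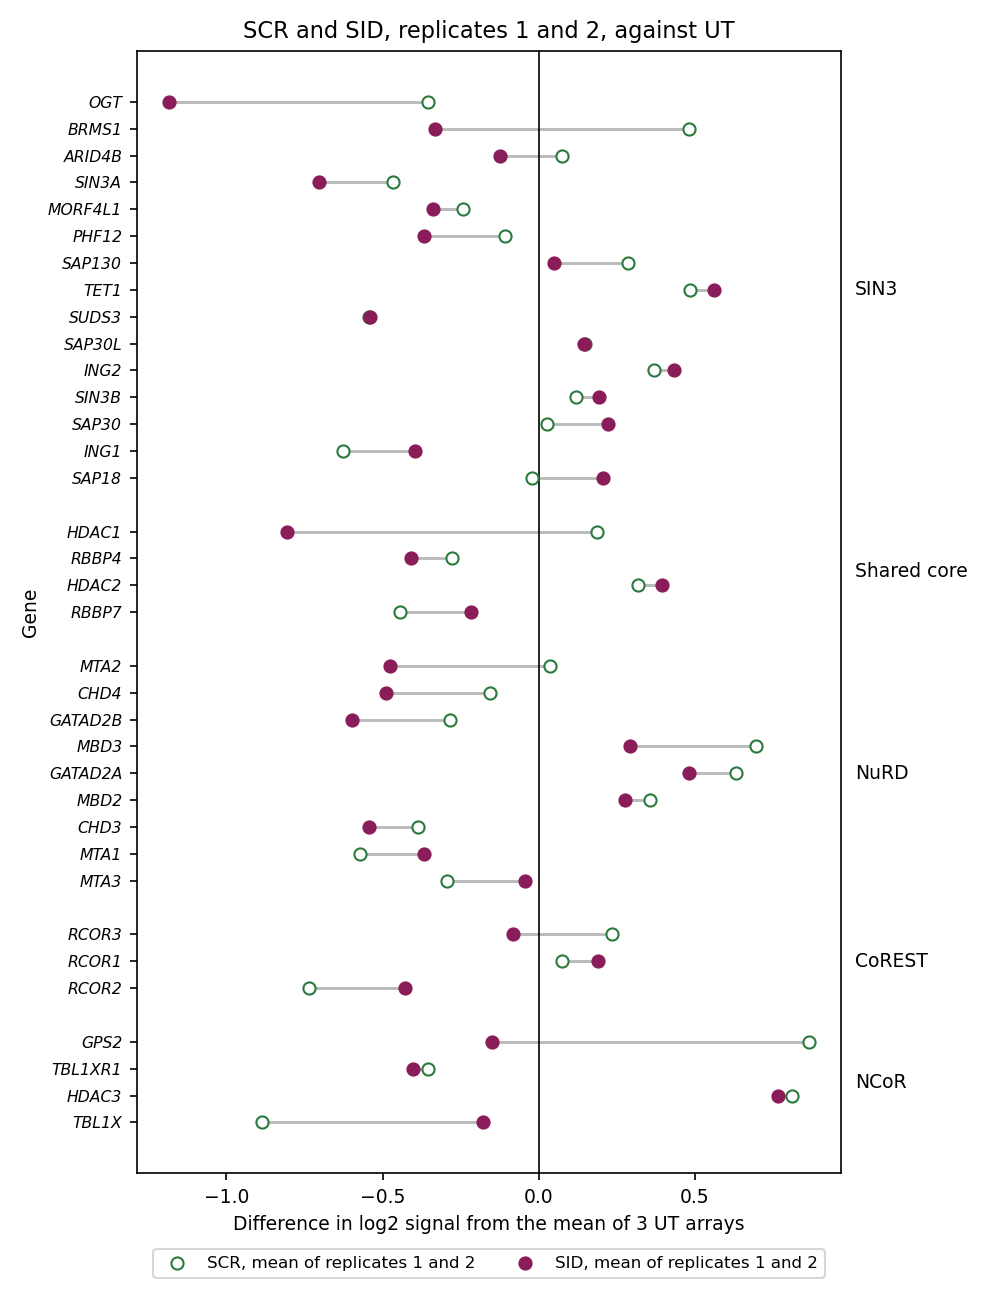
Mean of replicates 1 and 2 minus the mean of 3 UT arrays (log2) for SCR (open circles) and SID (filled circles), joined by a line for each of the 35 subunits and grouped by complex. SCR and SID lie on opposite sides of UT for 7 of the 35 subunits, among them GPS2 (0.87 and -0.15), HDAC1 (0.19 and -0.81) and BRMS1 (0.48 and -0.33), with MTA2, RCOR3, ARID4B and SAP18 as the others. For MTA2 and SAP18 the SCR mean lies near UT (0.03 and -0.02). The share over all genes is not given here, so the count is not a trait of these subunits.

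Partner genes of the complexes, in lists that add demethylases, zinc finger proteins and the other deacetylases, gave 40 measured genes of 44. On average SID exceeded SCR for 27 of these and was below it for 13, with a median of 0.08 (0.02 over all genes). No partner was called on the 9 arrays. At an unadjusted p under 0.05, KDM5B, HDAC5 and HDAC6 were higher (3 of 40, where 4.53% of all probes were) and none was lower (3.05% of all probes). The CoREST partners had 9 higher and 1 lower of 10, the SIN3 partners 5 and 4 of 9, the NCoR partners 3 and 4 of 7, the NuRD partners 4 and 3 of 7, and the MiDAC and other deacetylase genes 6 and 1 of 7. A difference over 0.5 in both replicate 1 and replicate 2 was found for 7 partners on the higher side (6.13% of all genes) and for EMSY on the lower (7.79% of all genes).

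KDM5B, a histone demethylase found with SIN3, differed by 0.80, 0.65 and -0.06, and SINHCAF, another SIN3 subunit, by 0.59, 0.76 and 0.02. EMSY, which joins the KDM5 form of SIN3, differed by -0.71, -1.05 and 0.20. ZNF217, an oncogene product that works with CoREST, differed by 0.90, 1.08 and -0.13, and HMG20B, a DNA-bending CoREST subunit, by 0.59, 0.96 and 0.03. As for the members, replicate 3 showed little of these differences.

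Seen along the deacetylases, HDAC1 was lower and HDAC5, HDAC6 and HDAC11 were higher in SID in both replicate 1 and replicate 2. HDAC5, a class II enzyme that NCoR binds, had log2 signals of 9.09, 9.21 and 9.16 in UT, 8.51, 8.75 and 9.06 in SCR, and 9.64, 10.17 and 9.15 in SID, with differences of 1.13, 1.42 and 0.10 (mean 0.88 with a standard error of 0.25, limma adjusted p = 0.657). HDAC6, the tubulin deacetylase, had 9.32, 9.30 and 9.47 in UT, 8.61, 8.85 and 9.0 in SCR, and 9.94, 10.01 and 8.98 in SID, with differences of 1.33, 1.16 and -0.02 (mean 0.82 with a standard error of 0.26, limma adjusted p = 0.657). For both, SID lay above and SCR below UT in replicates 1 and 2. HDAC11 differed by 0.80, 0.69 and -0.14, with the same SCR signal of 7.83 on all 3 arrays. Within replicates 1 and 2, HDAC5 (1.27, adjusted p = 0.00198) and HDAC6 (1.24, adjusted p = 0.000441) were called higher by limma with the set term, where 1.95% of all probes were. HDAC9 was at -0.02, -0.61 and -0.03, and thus passed 0.5 in size in replicate 2 alone. HDAC2, HDAC3, HDAC4, HDAC7, HDAC8 and HDAC10 did not reach 0.5 in size in any replicate.

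**Figure D5:**
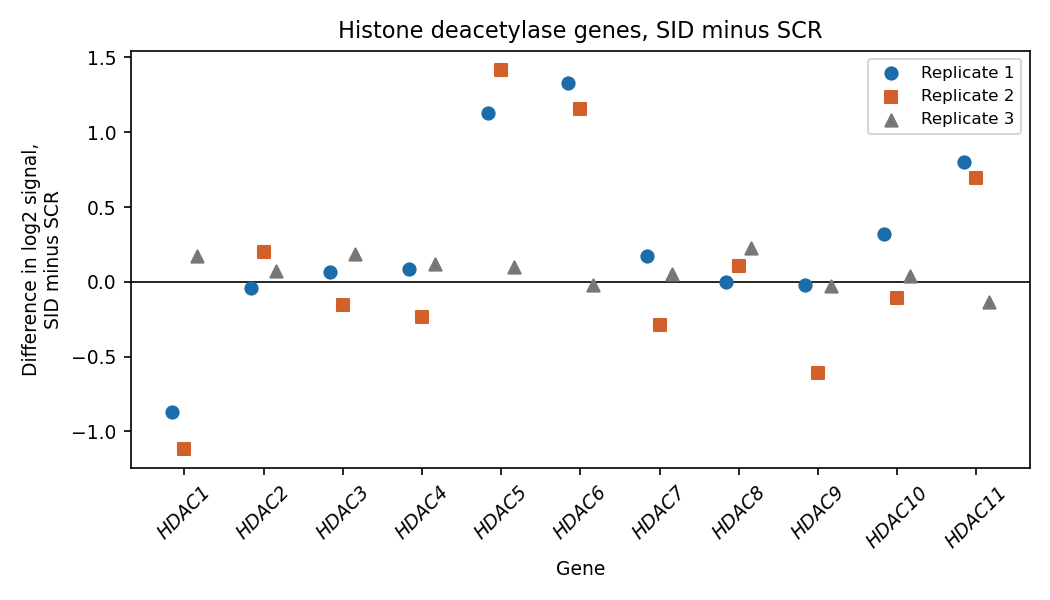
SID minus SCR (log2 signal, vertical axis) for the 11 zinc-dependent histone deacetylase genes in replicates 1, 2 and 3 (circles, squares and triangles). HDAC1 lies at -0.87 and -1.12 in replicates 1 and 2, HDAC5 (1.13 and 1.42) and HDAC6 (1.33 and 1.16) lie above 1, and the triangles of replicate 3 lie near 0.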

How the data were processed

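RNA of MDA-MB-231 cells was measured on Affymetrix Human Gene ST arrays, 3 each for UT, SCR and SID. The log2 signals per transcript cluster are used as the authors deposited them. Their processing notes list RMA, Expression Console and Transcriptome Analysis Console without versions, and a log2 scale was read from the values. No genome build is given in the sources used here, and the single-probe analysis of the methods (ChipInspector) cannot be repeated from these signals.

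Of 33297 probes, 19460 with 1 gene symbol were tested (1754 had several and 12083 none), and 19429 of them matched RefSeq genes by Entrez ID. Where several probes named a gene, the one with the highest mean on the 9 arrays was used. Group means were fitted on all 9 arrays with lmFit and eBayes of limma 3.58.1 (R 4.3.3), with Benjamini-Hochberg adjustment over all tested probes. A second fit gave replicates 1 and 2 of each peptide a mean of their own, and another used these 4 arrays alone. Both were chosen with the split of the arrays known.

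The subunits, the partner and marker lists and these fits were chosen with earlier results of these data known, so no list is independent evidence, and lists are given by counts and medians alone. Full values are given for SIN3A and SIN3B, for members with an unadjusted p under 0.05 between SID and SCR, and for those over 0.5 with one sign in both replicate 1 and replicate 2. Values of other subunits and of partner genes were chosen after they were seen.

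Deviations from the group means correlated at 0.774, 0.575 and 0.791 between SCR and SID of the same number, so a replicate block was run. On all 9 arrays this block also joined UT to the peptides by number, although UT showed little such correlation (-0.07 to 0.21). A further block on the SCR and SID arrays alone left UT out. Replicates 1 and 2 correlated as much across numbers (0.748 and 0.604), so the values separate the array sets and do not show that numbers 1 and 2 pair. The fit was tested before use on simulated data with independent noise. These data lacked the split of the arrays, so the test cannot tell how the fit behaves under it. Precision is limited by the number of arrays. Plots were made in matplotlib 3.10.9.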

Additional observations from a re-analysis of the deposited data

How the results depend on the processing

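Counts and medians of the subunits were recomputed with quantile normalization, centring, a filter on dim probes, array weights, a mean over probes, the methods' t-test, no fold limit, a replicate block, both fits to replicates 1 and 2, and without each array in turn. Of these values 152 stayed close to those given and 10 moved. For a median, close meant within the standard deviation of the replicate medians (0.23 for NuRD), so that a change of sign could count as close. Leaving out a UT array or adding a replicate block could not change a median of SID minus SCR. The tally is therefore not a measure of how stable the medians are. Members called between SID and SCR came to 1 (GPS2) with the array set as a term and 1 with replicates 1 and 2 alone, and to 0 otherwise. Between SID and UT the count ran from 0 to 1 when arrays were left out, with OGT called without SID replicate 3, and between SCR and UT it was 0 throughout. Without the fold limit, some settings put more members under an adjusted p of 0.05 from limma. Array weights gave 8 between SID and SCR (5056 of 19460 probes), 24 between SID and UT (10041) and 22 between SCR and UT (9072). Leaving out SID replicate 3 gave 4 between SID and SCR (2019) and 9 between SID and UT (4452). Leaving out SCR replicate 3 gave 1 between SID and SCR (575) and 11 between SCR and UT (2689). By the methods' t-test 0 members were called in each comparison, and 0 (SID and SCR), 8 (SID and UT) and 6 (SCR and UT) members had an unadjusted p under 0.05. With the replicate block 0 members were called in each comparison, and HDAC1, TBL1X and GPS2 had an adjusted p of 0.597 from limma (0.526, 0.526 and 0.533 on the SCR and SID arrays alone, a setting added after the data were seen). The block thus changed no call. The median of all members ran from -0.0676 to 0.0037 and that of NuRD from -0.22 (without SID replicate 3) to -0.05 when arrays were left out. The SIN3 median was -0.0031 in both fits to replicates 1 and 2 and ran from -0.0676 to 0.0037 when arrays were left out. Array weights, estimated with convergence warnings, gave a CoREST median of 0.18. GPS2 was at -1.01 in both fits to replicates 1 and 2. SIN3A turned from -0.14 to 0.04 without SCR replicate 3, and without 1 array it ran from -0.41 (SID replicate 3) to 0.0532 (SID replicate 2). Without 1 array, HDAC1 ran from -0.98 to -0.36, BRMS1 from -0.76 to -0.18, GPS2 from -0.81 to -0.42, TBL1X from 0.34 to 0.74 and SIN3B from 0.05 to 0.14. With 2 arrays per peptide in the array set that differed, calls there rest on few values.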
